A study of Mus musculus with 6 samples.

Results

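The genes described here encode 10 acute phase proteins: the serum amyloid A proteins Saa1, Saa2 and Saa3, lipocalin 2 (Lcn2), haptoglobin (Hp), hemopexin (Hpx), ceruloplasmin (Cp), the orosomucoids Orm1 and Orm2, and the serpin Serpina3n. The rule takes these genes by name and uses no measured value, although earlier results of these data were known when the list was drawn up. Each was found on the array through the transcript accession given for its features, and where a gene had several features the one with the highest mean signal over the 6 arrays was used. All 10 were found, and all were among the 16366 genes that passed the filter on dim features, of 22907 genes with a matched feature.

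The lungs came from male C57BL6 mice, 10 weeks old, that were starved for 16 h and then given LPS, the bacterial endotoxin, at 20 mg/kg into the peritoneum. The saline group (n = 3) was injected with saline at 3 and 24 h after LPS, and the rhTM group (n = 3) with recombinant human thrombomodulin, a soluble form of the endothelial anticoagulant receptor, at the same times. Lungs were taken at 30 h after LPS, and total RNA of the whole lung was hybridised to a one-colour mouse expression array. Every mouse therefore had LPS and was alive at 30 h, and lungs without LPS were not analysed here, so the size of the LPS response itself is not given. The control is called saline in the sample labels and in the array and PCR methods, and PBS where the methods describe the injections.

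Acute phase proteins are secreted proteins whose level in plasma shifts during infection and injury. The liver is their best known source, and interleukin 6, acting through STAT3, and interleukin 1 and TNF, acting through NF-kB and the C/EBP factors, are the signals that drive their genes there. Several are also made outside the liver: Saa3 and Lcn2 are strongly expressed by epithelial cells, macrophages and neutrophil precursors, and haptoglobin and ceruloplasmin have been found in lung. In bulk lung RNA, more or fewer cells of a type and more or less RNA per cell cannot be told apart.

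The 250 bases before the transcription start of 5 of these genes follow, because C/EBP, NF-kB and STAT sites are known from control regions of this family and because the sequences show how alike Saa1 and Saa2 are. They were read from the RefSeq promoter table of build GRCm38.p6, which held a window for 8 of the 10 genes, those of Hp and Orm1 not among them. Each is written 5′ to 3′ on the gene's own strand, and capitals mark matches, on either strand, to the letters TTNNGNAA (C/EBP), TTCNNNGAA (STAT), CTGGGA (the interleukin 6 response element) or GGNNNTTCC (NF-kB).
Saa1, minus strand, chr7:46742981-46743230: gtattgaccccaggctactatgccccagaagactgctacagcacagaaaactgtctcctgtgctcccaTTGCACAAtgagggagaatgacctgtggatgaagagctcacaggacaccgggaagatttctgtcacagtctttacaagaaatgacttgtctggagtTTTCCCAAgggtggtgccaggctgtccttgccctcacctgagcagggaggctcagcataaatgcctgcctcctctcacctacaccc
Saa2, plus strand, chr7:46751583-46751832: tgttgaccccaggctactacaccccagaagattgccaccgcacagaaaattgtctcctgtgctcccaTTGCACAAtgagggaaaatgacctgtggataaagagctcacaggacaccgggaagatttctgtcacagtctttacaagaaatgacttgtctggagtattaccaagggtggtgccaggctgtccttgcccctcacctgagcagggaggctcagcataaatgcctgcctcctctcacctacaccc
Saa3, minus strand, chr7:46715677-46715926: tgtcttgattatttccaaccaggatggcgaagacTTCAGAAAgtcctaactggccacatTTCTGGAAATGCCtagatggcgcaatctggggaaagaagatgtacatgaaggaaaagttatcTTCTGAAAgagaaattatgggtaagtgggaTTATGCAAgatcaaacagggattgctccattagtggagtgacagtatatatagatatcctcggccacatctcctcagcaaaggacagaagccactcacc
Hpx, minus strand, chr7:105600117-105600366: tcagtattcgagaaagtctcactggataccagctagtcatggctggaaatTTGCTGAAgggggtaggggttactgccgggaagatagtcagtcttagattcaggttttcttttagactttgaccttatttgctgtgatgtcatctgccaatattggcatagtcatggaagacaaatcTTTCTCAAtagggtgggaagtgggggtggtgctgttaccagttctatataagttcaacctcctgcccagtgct
Orm2, plus strand, chr4:63362199-63362448: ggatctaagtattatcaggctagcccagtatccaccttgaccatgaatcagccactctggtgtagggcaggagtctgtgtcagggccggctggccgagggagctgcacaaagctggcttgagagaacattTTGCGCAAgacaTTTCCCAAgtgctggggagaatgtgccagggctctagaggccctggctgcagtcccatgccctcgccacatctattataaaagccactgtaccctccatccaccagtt

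The C/EBP letters occurred in all 8 windows available, taking the first window listed for each gene, whereas 36.9% of the 27025 genes in the table held them. The interleukin 6 letters occurred in 1 of 8 (Cp, against 26.8% of genes), the NF-kB letters in 2 of 8 (Saa3 and Serpina3n, against 15.6%), and the STAT letters in 0 of 8 (against 7.18%). A second window listed for Cp also held the NF-kB letters. In Saa3 the NF-kB match began 187 bases before the start and overlapped a C/EBP match that began at 191. These are matches of letters in a short window and no measure of binding. Saa1 and Saa2 were identical at 238 of 249 aligned bases (95.6%), but the C/EBP match that began 86 bases before the start of Saa1 was absent from Saa2. The genes lie next to each other, in the order Saa3, Saa4, Saa1, Saa2, and the current gene table lists each of Saa1 and Saa2 as an older name of the other. Because transcripts of this pair are also closely alike, cross-hybridisation between their features is possible and was not tested.

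A pair of facts about the arrays touches every value below. In the authors' processed table the columns of saline 1 and rhTM 2 held the scanner values of the opposite sample: each equalled the other's scanner output, within a tolerance of 0.1%, at 99.9% of features. Results for the 10 genes are therefore given by the scanner output as labelled, by the table, and without both arrays. Those for other genes are given as labelled and, for most, by the table. Summed levels are given as labelled only. The arrays also came from different slides, with saline 1 and rhTM 3 on slide 2 and the other 4 on slide 1. Array saline 1 also had a spike-in slope of 0.826, outside the scanner software's accepted range, against 1.07 to 1.09 on the others. Between 36243 and 40646 features of 56605 were well above background on an array, and none was saturated.

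Levels are given as multiples of the 75th percentile of the array's signal, so that 1 is the level of that percentile, and fold changes are rhTM over saline on the log2 scale with the standard error (SE) from limma. Of the 10 genes, 9 had a higher mean log2 level with rhTM, with a median log2 fold change of 0.25, against 0.00 over all 16366 genes tested, of which 8294 were higher. The groups overlapped for every gene. By limma with Benjamini-Hochberg adjustment 0 of the 10 passed an adjusted p of 0.05, and every adjusted p was 0.9999. Over all genes 0% were called, although 306 (1.87%) had an unadjusted p under 0.05 (340 by the methods' t-test, 0 after adjustment), none of them an acute phase gene of the 10.

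**Figure D1:**
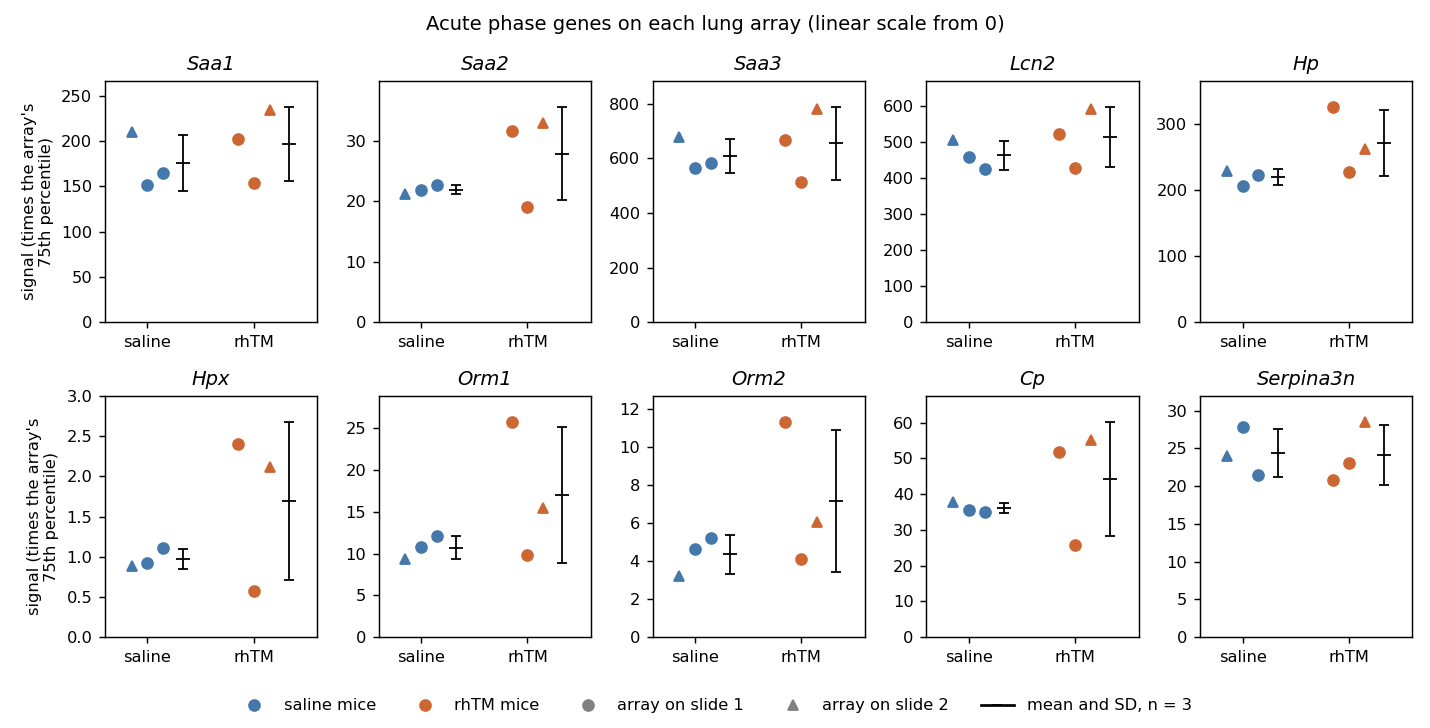
Signal of each acute phase gene on each array, as a multiple of the array's 75th percentile on a linear axis from 0, with mean and SD (n = 3) beside the points; circles are arrays on slide 1 and triangles arrays on slide 2. For all 10 genes the points of the groups overlap, and for Saa2, Hp, Hpx, Orm1, Orm2 and Cp the saline arrays lie closer together than the rhTM arrays.

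Serum amyloid A proteins travel on high density lipoprotein and attract leukocytes. Saa1 and Saa2 are the main plasma forms, and Saa3 is the form made mostly outside the liver. Saa1 stood at 210.5, 152.1 and 165.3 in saline 1, 2 and 3, and at 202.4, 153.5 and 234.7 in rhTM 1, 2 and 3. Saline 1 lay above rhTM 1 and rhTM 2, and the arrays of slide 2 were the highest in each group. The log2 fold change was 0.15 (SE 0.20, two-sided exact permutation p = 0.6). With 3 against 3 that test cannot fall below 0.1.

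Saa2 stood at 21.2, 21.8 and 22.7 in the saline lungs, and at 31.7, 19.0 and 32.95 in the rhTM lungs. The saline lungs hardly differed, whereas rhTM 1 and rhTM 3 lay above all of them and rhTM 2 below all of them. This gave a log2 fold change of 0.30 (SE 0.22, exact permutation p = 0.4). The SD of the log2 level was 0.05 in saline and 0.44 in rhTM lungs.

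Saa3 stood at 678.3, 563.6 and 581.6 in the saline lungs, and at 668.1, 513.9 and 780.2 in the rhTM lungs. As for Saa1, the highest array of each group came from slide 2, and the groups overlapped. The log2 fold change was 0.09 (SE 0.18, exact permutation p = 0.7), and it turned to -0.05 without rhTM 3.

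The next genes handle iron, heme and copper. Lcn2 binds the siderophores with which bacteria gather iron. Its signal was 504.7, 457.9 and 426.4 in the saline lungs, and 523.3, 427.0 and 592.2 in the rhTM lungs. Here rhTM 1 and rhTM 3 lay above every saline lung, and rhTM 2 lay within 1 unit of the lowest. By limma the log2 difference was 0.14 (SE 0.16, exact permutation p = 0.4). The other feature for the same transcript gave 307.4, 222.1 and 186.2 in saline and 234.5, 199.8 and 363.4 in rhTM lungs. On that feature both arrays of slide 2 were the highest of all, and the log2 fold change was again 0.14.

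Hp encodes haptoglobin, which captures free haemoglobin. Its signal was 229.0, 206.4 and 223.5 in the saline lungs, and 325.8, 226.7 and 261.7 in the rhTM lungs. Only rhTM 2 lay inside the saline range, between saline 3 and saline 1. Hp gave a log2 fold change of 0.29 (SE 0.16, exact permutation p = 0.2), the smallest unadjusted limma p among the 10 genes (0.113, adjusted p 0.9999).

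Hpx encodes hemopexin, which binds free heme. It stood at 0.885, 0.923 and 1.11 in the saline lungs, and at 2.40, 0.571 and 2.11 in the rhTM lungs. The values of rhTM 1 and rhTM 3 were each above every saline lung, and rhTM 2 was the lowest of the 6. The span from lowest to highest array was 4.21-fold, the widest of the 10 genes, and the log2 fold change was 0.56 (SE 0.53, exact permutation p = 0.4).

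Cp encodes ceruloplasmin, a copper protein that oxidises ferrous iron. Its brightest feature gave 37.9, 35.6 and 35.2 in the saline lungs, and 51.8, 25.9 and 55.1 in the rhTM lungs. The picture was that of Saa2 and Hpx, with rhTM 1 and rhTM 3 above and rhTM 2 below a narrow saline range. The log2 fold change was 0.21 (SE 0.29, exact permutation p = 0.5). Cp had 4 features. The other feature for transcript NM_007752 moved in the same way, at 4.20, 3.87 and 3.11 in saline and 4.92, 2.52 and 4.93 in rhTM lungs. The feature for NM_001276248 gave 1.21, 0.985 and 0.876 in saline and 1.04, 0.911 and 1.30 in rhTM lungs. The feature for NM_001276250 gave 2.10, 2.39 and 1.95 in saline and 2.12, 2.18 and 2.30 in rhTM lungs. On these last features rhTM 2 did not stand below the saline lungs, and the log2 fold changes were 0.08 and 0.04.

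**Figure D2:**
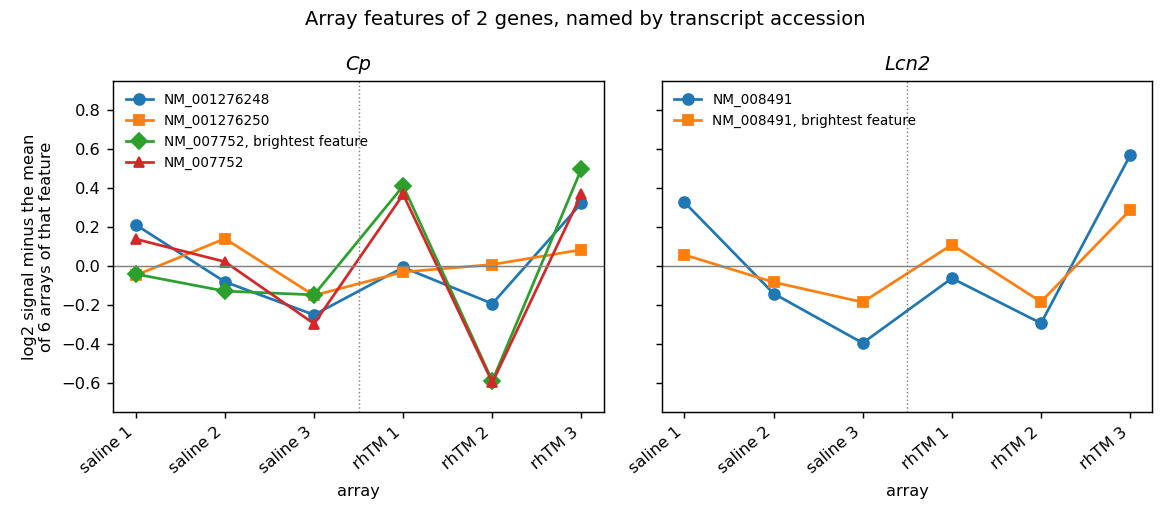
Log2 signal of each feature of Cp (4 features) and Lcn2 (2 features) on each array, minus that feature's mean over the 6 arrays. Both features of transcript NM_007752 of Cp fall together in rhTM 2 and rise in rhTM 1 and rhTM 3, while the feature of NM_001276250 stays near its mean.

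Orosomucoids are small glycoproteins that carry drugs and lipids in plasma. Orm1 stood at 9.29, 10.72 and 12.1 in the saline lungs, and at 25.7, 9.78 and 15.5 in the rhTM lungs. Its highest value, in rhTM 1, was 2.77 times the lowest, in saline 1. Orm1 gave a log2 fold change of 0.57 (SE 0.34, exact permutation p = 0.3). Orm2 stood at 3.20, 4.63 and 5.22 in the saline lungs, and at 11.3, 4.11 and 6.03 in the rhTM lungs. The order of the arrays was that of Orm1, with rhTM 1 highest, rhTM 3 next and saline 1 lowest. For Orm2 the log2 fold change was 0.62 (SE 0.38, exact permutation p = 0.3). Orm1, Orm3 and Orm2 are neighbours and close relatives, so signal from one may reach the features of another.

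Serpina3n encodes an inhibitor of neutrophil and mast cell proteases. It stood at 23.9, 27.8 and 21.5 in the saline lungs, and at 20.9, 23.0 and 28.5 in the rhTM lungs. It was the only gene of the 10 with a lower mean log2 level with rhTM, by a log2 fold change of -0.02 (SE 0.17, exact permutation p = 0.8), and the sign changed under several settings. Its span of 1.37-fold over the 6 arrays was the narrowest. It belongs to a cluster of closely related serpin genes, and Serpina3m is its neighbour.

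**Figure D3:**
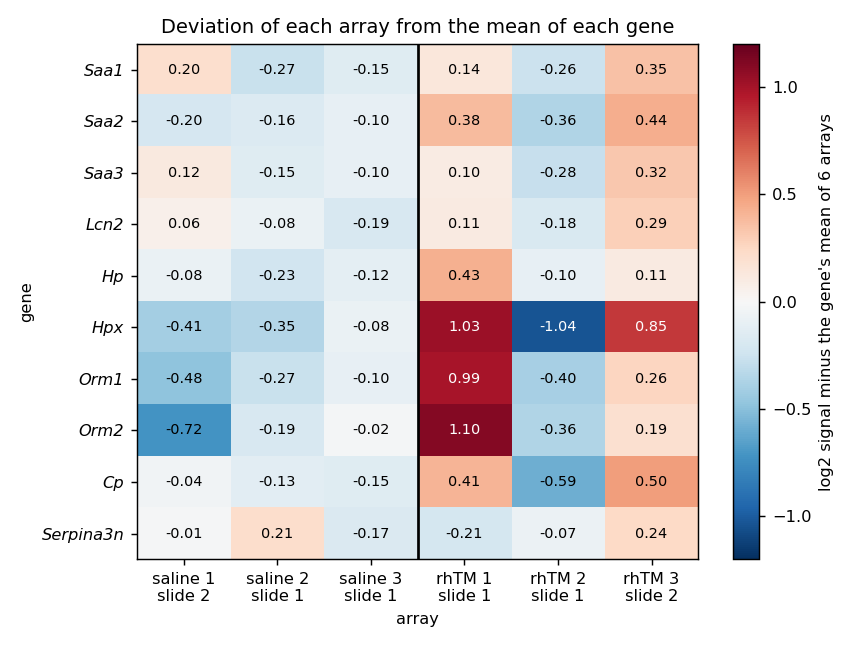
Log2 signal of each gene on each array minus the gene's mean over the 6 arrays, with saline arrays left and rhTM arrays right of the line and the slide of each array below it. The column of rhTM 3 is positive for all 10 genes and that of rhTM 1 for 9, while the column of rhTM 2 is negative for all 10.

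The rhTM lungs thus differed among themselves more than the saline lungs did. On rhTM 3 all 10 genes lay above their own mean, on rhTM 1 9 of them did, and on rhTM 2 none did. The median deviation from a gene's mean was 0.40 in rhTM 1, -0.32 in rhTM 2 and 0.30 in rhTM 3, and it lay between -0.18 and -0.06 in the saline lungs. For all 10 genes the SD of the log2 level was larger in the rhTM group. That held for 66.1% of all genes tested, so the count is to be read against a high background. The median SD of the 10 genes was 0.38 in rhTM and 0.16 in saline lungs, whereas over all genes it was 0.22 and 0.16. By the table the count was again 10 of 10, against 70.8% of all genes.

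By the authors' table, in which the values of saline 1 and rhTM 2 change places, all 10 genes had a higher mean with rhTM and the median log2 fold change was 0.40, against -0.02 over all genes. Every rhTM value lay above every saline value for 5 genes, Saa1, Saa3, Lcn2, Hp and Cp. That held for 9.68% of all genes by the table, and for 2.95% by the scanner output, where it held for 0 of the 10. The log2 fold change was 0.46 (SE 0.10) for Saa1, 0.36 (SE 0.11) for Saa3, 0.58 (SE 0.20) for Cp and 0.98 (SE 0.43) for Hpx, all higher than as labelled. For Saa2 it was 0.41 and for Lcn2 and Hp 0.30, while Orm1 went from 0.57 to 0.52, Orm2 from 0.62 to 0.38 and Serpina3n from -0.02 to 0.02. None of the 10 passed limma's adjusted threshold by the table either (lowest adjusted p 0.314, for Saa1), where 0% of genes were called. An unadjusted p under 0.05 was found for 4 of the 10, and for 14.0% of all genes by the table. In the table both arrays of slide 2 stand in the rhTM group, so that slide and treatment are partly mixed there. A fit with the slide as a block then compares rhTM 1 alone with the saline lungs, all on slide 1. Its calls and fold changes, given next, rest on that 1 rhTM lung and cannot decide a difference between the groups. With the slide as a block, the table gave 187 higher and 245 lower genes past limma's adjusted threshold, 2.65% of those tested, and 0 of the 10 were among them. The fold changes of some moved, Hpx to 1.52, Orm1 to 1.25 and Orm2 to 1.29, each for rhTM 1 against the saline lungs.

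Without both exchanged arrays, 2 saline and 2 rhTM lungs remained. Of these only rhTM 3 came from slide 2, so slide and treatment are partly mixed here too. Both rhTM lungs then lay above both saline lungs for 9 of the 10 genes, all but Serpina3n, against 19.8% of all genes. The median log2 fold change was 0.50, against -0.01 over all genes. It was 1.15 for Hpx (SE 0.18), 0.81 for Orm1 (SE 0.28), 0.75 for Orm2 (SE 0.33), 0.54 for Saa2 (SE 0.15) and 0.33 for Saa3 (SE 0.17). Again 0 of the 10 passed the adjusted threshold (lowest adjusted p 0.666 by limma), and 5 had an unadjusted p under 0.05, namely Saa1, Saa2, Hpx, Orm1 and Cp, against 7.46% of all genes. The direction for these 9 genes did not turn between the scanner output, the table and this subset, while its size did.

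**Figure D4:**
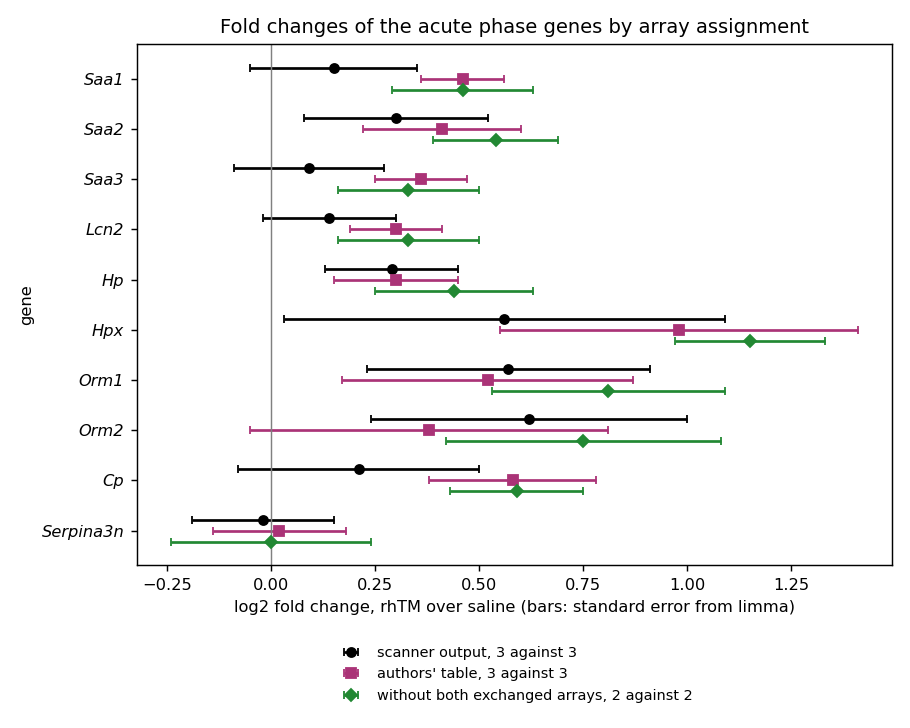
Log2 fold change of each gene, rhTM over saline, with limma's standard error, by the scanner output (circles), by the authors' table (squares) and without both exchanged arrays (diamonds). For Saa1 it is 0.15 by the scanner output and 0.46 by both others, and for Serpina3n all 3 estimates lie within 0.02 of 0.

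Within slide 1, with 2 lungs a group, 9 of the 10 genes were higher with rhTM, with a median of 0.15 and a range from -0.16 (Serpina3n) to 0.48 (Orm1). Within slide 2, with 1 lung a group and hence no test, all 10 were higher, with a median of 0.40 and a range from 0.16 (Saa1) to 1.26 (Hpx). The values of this paragraph hold for the scanner labels only. By the table both arrays of slide 2 are rhTM, so slide 2 holds no comparison there. With the slide as a block the adjusted p by limma ranged from 0.920 to 0.983. In a model with the group beside the slide, Saa1 was 0.41 higher on slide 2 (SE 0.14), Saa3 0.33 (SE 0.14) and Lcn2 0.26 (SE 0.13), while Orm2 was 0.40 lower, a log2 difference of -0.40 (SE 0.41). None of the 10 passed limma's adjusted threshold for the slide (lowest adjusted p 0.258), against 1.42% of all genes.

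Of 40 other positive acute phase proteins listed, 27 were measured, 18 with a higher and 9 with a lower mean log2 level, and 0 passed the adjusted threshold by limma. The median of their log2 fold changes was 0.21 as labelled, and 0.00 in the table. Crp, Apcs, Fga, Fgb, Mbl2, Serpina1c, Serpina1d, Serpina1e, Serpina10, Serpinf2, A2m and Pzp, most of them plasma proteins made by the liver, were not well above background, and no feature was matched to Serpina3g. Fgg, a fibrinogen chain, had the largest difference, and its level was 0.0388, 0.0221 and 0.205 in saline and 1.48, 0.0188 and 0.108 in rhTM lungs. Only rhTM 1 stood above every saline lung, and the log2 fold change was 1.37 (SE 1.59) as labelled and 2.06 in the table.

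Orm3, between Orm1 and Orm2 on the chromosome, stood at 0.516, 0.500 and 0.561 in saline and at 1.66, 0.355 and 1.00 in rhTM lungs. As for Hpx, rhTM 1 and rhTM 3 were high and rhTM 2 lowest, and its log2 fold change was 0.68 (SE 0.52), and 1.03 (SE 0.42) in the table. Ptx3, a pentraxin made by inflamed tissue itself, gave 0.95 (SE 0.55) as labelled and 1.46 (SE 0.35) in the table, where the groups did not overlap. It was 1.80 without both exchanged arrays. Of 9 negative acute phase proteins, which fall in plasma during inflammation, only Rbp4 and Ahsg were measured, at 0.30 and 0.43 as labelled and 0.59 and 0.55 in the table. Alb, Ttr, Apoa1, Serpina6, Serpina7 and Serpinc1 were not well above background, and no feature was matched to Tf.

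Of 28 inducers and signalling genes of the acute phase response all were measured, 20 with a higher and 8 with a lower mean, with a median of 0.07 and 0 past the adjusted threshold by limma. By the table, 18 were higher and 10 lower, with a median of 0.05. Il6, the main inducing cytokine, stood at 2.25, 1.37 and 0.917 in saline and at 4.48, 1.02 and 1.58 in rhTM lungs. The highest lung was rhTM 1, the groups overlapped, and its log2 fold change was 0.45 (SE 0.58) as labelled, against 1.21 (SE 0.38) in the table, where the groups did not overlap. Socs3, the feedback inhibitor that interleukin 6 induces, stood at 25.1, 26.3 and 21.3 in saline and at 53.6, 23.4 and 23.2 in rhTM lungs. It was likewise high in rhTM 1 alone, as was Stat3, which gave 11.4, 16.6 and 16.4 in saline and 30.4, 16.0 and 14.3 in rhTM lungs. Their log2 fold changes were 0.35 (SE 0.33) and 0.39 (SE 0.31) as labelled, and 0.42 and 0.06 in the table. The C/EBP factor genes Cebpb and Cebpd gave 0.10 (SE 0.15) and 0.19 (SE 0.16) as labelled. In the table they gave 0.27 (SE 0.09) and 0.37 (SE 0.10), with every rhTM array above every saline array, as for 9.68% of all genes there. Nfkbiz, a nuclear cofactor of NF-kB that Lcn2 needs, gave 0.01 (SE 0.12), and -0.02 in the table. Tyk2 and Tnf had the largest lower means as labelled, at -0.50 and -0.45, against -0.46 and -0.42 in the table.

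Of 19 receptors and partners that take up or answer to these proteins, all were measured, 9 higher and 10 lower, with a median of -0.01 and 0 past the adjusted threshold. In the table the counts were the same, with a median of -0.05. The haptoglobin receptor Cd163 gave -0.01 (SE 0.25) as labelled and 0.39 (SE 0.20) in the table. The lipocalin receptor Slc22a17 likewise turned, from -0.07 (SE 0.36) to 0.39 (SE 0.33). The hemopexin receptor Lrp1 gave -0.11 (SE 0.16) and -0.24 (SE 0.12), and Fpr2, a receptor for serum amyloid A, 0.17 (SE 0.19) and 0.19 (SE 0.18). Hmox1, which breaks down heme, gave 0.08 (SE 0.15) and 0.11 (SE 0.13). Lrp2, which takes up many filtered proteins, had the largest difference as labelled, at -0.37 (SE 0.31), and gave -0.59 (SE 0.25) in the table.

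**Figure D5:**
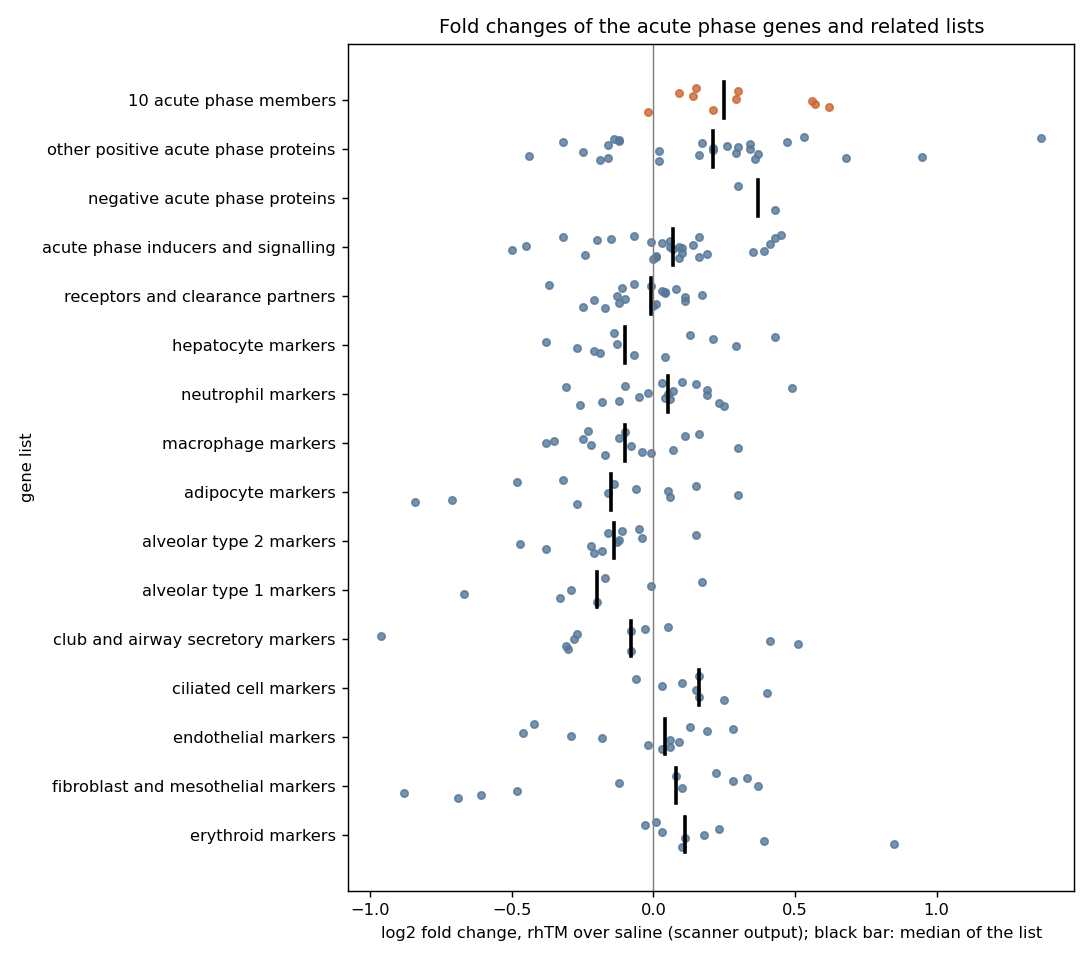
Log2 fold change, rhTM over saline by the scanner output, of each measured gene in each list, 1 point a gene, with the median of the list as a black bar. The median is 0.25 for the 10 acute phase genes, 0.21 for the other positive acute phase proteins, 0.37 for the 2 negative acute phase proteins measured, 0.16 for ciliated cell markers, and between -0.20 and 0.11 for the other lists.

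Markers of cells that could bring these transcripts were read beside them. Of 24 hepatocyte markers 12 were measured, and Alb, Ttr, Apoa1, Apob, Apoh and Cps1 were not well above background. The summed level of those measured ran from 11.9 to 14.5 in saline and from 10.5 to 16.2 in rhTM lungs, and 5 were higher and 7 lower (median log2 fold change -0.10), against 9 and 3 in the table (median 0.20). The highest single marker was Apoa2, at 8.37 and 8.41 on the arrays of slide 2 and between 3.02 and 4.36 on the others. The list shares Alb, Ttr, Apoa1, Ahsg, Serpina1c, Serpina3k, Fgb and F2 with the acute phase lists. Within the list, the summed level was highest in rhTM 3, then rhTM 1, saline 1, saline 3 and saline 2, and lowest in rhTM 2. The summed level of the 10 acute phase genes had the same order of arrays, but both sums rest on few genes. Without Apoa2 the hepatocyte sums were 6.17, 7.55 and 9.71 in saline and 12.7, 6.53 and 7.75 in rhTM lungs, and the shared order was gone. Saa1, Saa3, Lcn2 and Hp gave 92.3% to 94.4% of the summed signal of the 10 genes, of which several others, such as Orm1 and Hpx, had another order.

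Neutrophils store lipocalin 2 and haptoglobin in their granules. Of 20 neutrophil markers 19 were measured, 12 higher and 7 lower, with a median of 0.05 (0.08 by the table). Their summed level ran from 1299 to 1488 in saline and from 1335 to 1692 in rhTM lungs, and as for Orm1 and Orm2 the highest lung was rhTM 1. S100a8 gave 0.10 and S100a9 0.03 as labelled. In the table they gave 0.26 (SE 0.10) and 0.24 (SE 0.09), with every rhTM array above every saline array. Elane stood at 21.0 and 19.5 on the arrays of slide 2 and between 1.38 and 1.73 on the others, so it followed the slide. Adipocytes make haptoglobin and Saa3. Of 13 adipocyte markers 12 were measured, 4 higher and 8 lower under both assignments, with a median of -0.15 under each. Their summed level ran from 55.8 to 67.5 in saline and from 61.8 to 66.6 in rhTM lungs, and Adipoq was at most 0.109.

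Ciliated cell markers shared an order of arrays with some of the 10 genes. For 7 of 8 markers, Foxj1, Dnah5, Dnah9, Ccdc39, Tekt1, Sntn and Rsph1, rhTM 1 and rhTM 3 lay above every saline lung and rhTM 2 below every one. That order was read off the acute phase genes after their values were seen, and it held for 3 of the 10 (Saa2, Hpx and Cp) and for 3.79% of all genes. Foxj1, the master factor of motile cilia, stood at 2.95, 2.61 and 2.98 in saline and at 5.35, 1.56 and 3.87 in rhTM lungs. The exception was Tubb4b, a tubulin that other cells express too, with a log2 fold change of -0.06. The median of the 8 markers was 0.16 as labelled, 0.52 in the table and 0.63 without both exchanged arrays. Their summed level, which Tubb4b dominates, ran from 34.6 to 43.3 in saline and from 34.5 to 49.6 in rhTM lungs.

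For the remaining cell types the counts are given under both assignments. Of 12 alveolar type 2 markers 1 was higher and 11 lower as labelled (median -0.14), against 5 and 7 in the table (median -0.19). Of 11 club and airway secretory markers 3 were higher and 8 lower as labelled (median -0.08), against 7 and 4 in the table (median 0.17). Of 12 endothelial markers 7 were higher and 5 lower as labelled (median 0.04), against 4 and 8 in the table (median -0.09). The 11 fibroblast and mesothelial markers were 6 higher and 5 lower as labelled (median 0.08), against 5 and 6 in the table (median -0.08).

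The 15 macrophage markers were 4 higher and 11 lower under both assignments (medians -0.10 and -0.19). The 7 alveolar type 1 markers measured of 8 were 1 higher and 6 lower under both (medians -0.20 and -0.07). The 9 erythroid markers measured of 11 were 8 higher and 1 lower as labelled (median 0.11), against 9 and 0 in the table (median 0.27). None of these markers passed the adjusted threshold by limma under either assignment. The part of any of these cell types in the values of the 10 genes was not tested.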

How the data were processed

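Total RNA of 6 lungs (saline, n = 3; rhTM, n = 3) was hybridised to 6 one-colour Agilent arrays. The deposited scanner files hold the intensity of each spot, made by the authors with Agilent Feature Extraction, version 10.7.3.1 per the file headers and 9.1 in the submitters' processing notes. The authors also deposited a table of processed values. These equalled the scanner's processed signal, so they were neither on the log2 scale nor scaled to the 75th percentile. Both steps were applied to the table before its values were compared. The RNA kit is named differently in the labels and in the methods. No column holds the authors' own comparisons.

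Control and outlier spots were left out, spots of a feature averaged, and log2 of the processed signal was taken minus the array's 75th percentile. Features were kept if well above background on all arrays of a group. Of 56605 features 32989 were matched by accession to 22907 genes in the RefSeq gene table; the brightest feature stood for its gene. Of these, 16366 genes were tested with limma 3.58.1 (R 4.3.3; lmFit, eBayes; Benjamini-Hochberg, threshold 0.05), and single genes also with two-sided exact permutation tests over the 6 lungs. The fit was tested on simulated data. Per the labels each array holds the lung of 1 mouse. The number of arrays limits precision.

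Every acute phase gene was to be named with its 6 values. From the other lists the text names at most 3 genes with the largest differences, the defining markers, and a fixed set of regulators and receptors; Apoa2, Elane and the ciliated cell markers were named after their values were seen. The genes and lists were chosen with earlier results of these data known. Same-numbered lungs correlated at -0.30, 0.44 and -0.45 in their deviations from the group means and were not treated as pairs. Alternatives covered background correction, normalization, filters, slide, the table, the exchanged arrays and leaving out each lung.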

Additional observations from a re-analysis of the deposited data

How the results depend on the processing

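Of the 10 genes, 8 to 10 had a higher mean with rhTM under every alternative run, and 241 of 250 recomputed fold changes kept their sign. The reversals were Serpina3n, whose log2 fold change was 0.02 by the authors' table, and Saa3 and Orm2. Leaving out each lung in turn, Serpina3n ranged from -0.15 to 0.08 and Saa3 from -0.05 to 0.25. Larger moves in size came without rhTM 1 or rhTM 3 (lowest) and without rhTM 2 (highest): Hpx ran from 0.18 to 1.22, Orm1 from 0.21 to 0.91, Orm2 from 0.23 to 0.96, Cp from 0.02 to 0.56, Saa1 from 0.02 to 0.32, Saa2 from 0.16 to 0.56, Lcn2 from 0.03 to 0.27 and Hp from 0.15 to 0.41. In settings chosen after seeing the data, the table without 1 lung gave Serpina3n 0.12 (without saline replicate 2), 0.13 (without rhTM replicate 1) and 0.03 (without rhTM replicate 2), and Orm2 -0.08 (without rhTM replicate 1). The count of genes past the adjusted threshold by limma was 0 higher and 0 lower in all alternatives but these: the table fitted with slide as a block called 187 higher and 245 lower, and the table without rhTM replicate 1 443 higher and 119 lower, with 0 of the 10 genes among them. In the first of these fits rhTM 1 is the only rhTM lung on slide 1, so its calls rest on 1 rhTM lung. In the other, both rhTM arrays are on slide 2 and all saline arrays on slide 1, so slide and treatment cannot be told apart. The lowest adjusted p of the 10 genes by limma was 0.0577 (Saa1) in that other fit. Genes at an unadjusted p under 0.05 numbered 306 by the scanner output, 197 after normexp, 488 with no filter, 2279 by the table, 1221 without both exchanged arrays and 1378 without rhTM replicate 2. With the replicate block, 0 genes were called either way, and no call changed. The causes were not tested. Fgg, near the background in most lungs, has an uncertain fold change.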
